A study of Mus musculus with 12 samples.

Results

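The genes described here encode the machinery that starts transcription by RNA polymerase II (Pol II): the subunits of Mediator, the subunits of Pol II itself, the general transcription factors and the TBP-associated factors (TAFs). They were chosen by symbol, as genes whose name starts with Med or Taf and a number, with Polr2 and a letter from a to m, or with Gtf2, with pseudogenes left out and with at least 1 TPM in at least 2 of the 12 libraries. Levels are in TPM, a measure of how large a share of the transcripts in a library came from the gene, corrected for its length. Of 83 genes that matched, 80 passed, out of 11152 genes tested and 24589 in the table. They comprised 29 Mediator subunits, 13 Pol II subunits, 15 Gtf2 genes, 22 TAF genes and Med9os, a noncoding transcript opposite Med9 that the symbol pattern also takes. Of the 3 that did not pass, Gtf2a1l and Taf7l, germ-cell forms of TFIIA and Taf7, were listed at 0 in every library. Med12l, a paralog of Med12, lay between 0.16 and 0.65 TPM, just outside the limit. Med9os lay just inside it, with 2.47 TPM in its highest library and 1.09 TPM in the next.

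The libraries came from NRAS/AE9a leukemic cells, a line of mouse acute myeloid leukemia cells whose name gives its drivers, NRAS and the AML1-ETO9a fusion. They were Tet2 knockout (KO) or wild type (WT) for Tet2, an enzyme that oxidises 5-methylcytosine. Both grew in the same medium with the cytokines SCF, IL-3 and IL-6 and the selection drugs G418 and puromycin, and both received actinomycin D, which blocks transcription, at 5 µg/ml for 0, 4 or 8 h. Each of the 6 groups had 2 libraries. Whether the 2 were grown as separate cultures is not stated, so the p-values reflect the scatter of these libraries alone, and that scatter may be technical. The labels also name no second line of either genotype, so genotype cannot be told apart from any other difference between the KO and WT cells.

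Tet2 mRNA was lower in KO than in WT cells but was not absent. At 0 h it had 10.2 and 10.2 TPM in the KO libraries, against 13.1 and 16.0 TPM in the WT libraries, a log2 difference of -0.47 ± 0.13 (SE; limma adjusted p = 0.0167). Which part of the gene was deleted is not given in the sources used here. Between 9093 and 10827 genes reached 1 TPM in a library, and the 2 libraries of a group correlated with a Pearson r of 0.9911 to 0.9945 across genes. The 10 myeloid markers on the list used were all tested and summed to between 929 and 2348 TPM. Their sum was lower in the KO libraries than in the WT libraries at each time, but single markers went both ways. By limma (adjusted p under 0.05) 2 of the 10 were higher and 6 lower in KO cells at 0 h. Of all tested genes 14.3% were higher and 11.5% lower. Mpo had 146 and 137 TPM in the KO libraries at 0 h, against 28.5 and 33.5 TPM in the WT libraries. Elane had 29.1 and 27.6 TPM, against 89.0 and 96.25 TPM. The T and NK cell markers summed to at most 0.32 TPM, with Cd3d, Cd3g and Ncr1 at 0 throughout, and the B cell markers to at most 1.02 TPM, with Pax5 at 0. Erythroid markers summed to at most 7.5 TPM, with Hbb-bs at 0. Of the 6 stromal and endothelial markers, 2 were tested, Vim and Pecam1, and the list summed to between 1080 and 2013 TPM. Nearly all of that sum was Vim, with 929 to 1856 TPM, and Pecam1, with 57.6 to 159 TPM. Col1a1, Col1a2, Cdh5 and Pdgfra had at most 0.5 TPM in any library. No added RNA standard is named, so every value is a share of the RNA left in the library, and the sequencing depth behind it is unknown. In such bulk samples fewer cells that make a transcript and less of it per cell cannot be told apart.

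As background, Pol II starts at a promoter only with the general factors around it. TFIID, made of the TATA-binding protein and TAFs, recognises the promoter with TFIIA. TFIIB then links it to Pol II, TFIIF and TFIIE load and position the enzyme, and TFIIH opens the DNA and phosphorylates the tail of the largest subunit. Mediator bridges activators bound elsewhere to this assembly, its tail facing activators, its head and middle facing Pol II, and its detachable kinase module holding the contact in check. Actinomycin D intercalates into DNA and stops the elongating polymerase, so during the time course the mRNAs of this machinery could be lost but hardly replaced.

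The sequences of a few members show what their genes carry at the start and at the end. The first 4 are promoter windows of RefSeq on GRCm38.p6, from 250 bases before to 50 after the annotated start, for Med17 and Med4, among the members that fell furthest, and for Taf13 and Polr2f, among those that moved least. Capitals mark CCGGAAG, the core of the site that ETS-family factors bind, or its reverse complement. The Med17 window lies at chr9:15279857-15280156 on the minus strand, the Med4 window at chr14:73509799-73510098 on the plus strand, the Taf13 window at chr3:108571449-108571748 on the plus strand and the Polr2f window at chr15:79141075-79141374 on the plus strand.
Med17: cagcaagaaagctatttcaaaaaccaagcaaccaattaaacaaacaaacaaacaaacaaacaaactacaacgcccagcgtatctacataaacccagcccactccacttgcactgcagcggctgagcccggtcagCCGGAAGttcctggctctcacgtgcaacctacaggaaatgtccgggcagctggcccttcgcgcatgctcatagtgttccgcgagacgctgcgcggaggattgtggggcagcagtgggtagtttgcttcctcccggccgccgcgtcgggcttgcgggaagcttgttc
Med4: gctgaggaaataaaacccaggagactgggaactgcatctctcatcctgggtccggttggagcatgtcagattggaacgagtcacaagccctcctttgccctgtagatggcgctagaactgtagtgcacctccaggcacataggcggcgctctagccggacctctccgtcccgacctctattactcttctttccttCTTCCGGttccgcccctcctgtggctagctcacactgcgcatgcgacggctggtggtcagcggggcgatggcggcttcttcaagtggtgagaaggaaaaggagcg
Taf13: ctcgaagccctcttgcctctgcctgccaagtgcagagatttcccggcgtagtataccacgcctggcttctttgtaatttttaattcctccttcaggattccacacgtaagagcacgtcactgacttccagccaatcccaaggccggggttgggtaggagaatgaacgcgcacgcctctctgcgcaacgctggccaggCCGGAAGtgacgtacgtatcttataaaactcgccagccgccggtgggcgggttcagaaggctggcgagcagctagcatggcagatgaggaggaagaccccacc
Polr2f: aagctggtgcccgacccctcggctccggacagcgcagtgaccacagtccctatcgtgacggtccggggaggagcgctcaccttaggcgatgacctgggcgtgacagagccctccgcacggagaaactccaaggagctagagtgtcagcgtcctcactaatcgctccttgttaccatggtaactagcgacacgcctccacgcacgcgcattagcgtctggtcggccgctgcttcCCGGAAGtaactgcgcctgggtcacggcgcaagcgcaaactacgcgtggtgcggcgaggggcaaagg

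These 4 windows hold the motif, and those of Gtf2b, Gtf2h5, Taf10, Polr2l and Med25 do not. Of the 84 windows that the table gives for 69 of the members, 27 held CCGGAAG on either strand, which is 32.1%, against 18.6% of the 11010 windows of tested genes and 8.86% of all 32851 windows. TATAAA was found in 13.1% of the members' windows, 6.84% of those of tested genes and 13.6% of all, and GGGCGG in 64.3%, 62.4% and 35.7%. CCAAT was found in 34.5%, 38.2% and 37.4%, and ATGGCGG, the core of the YY1 site, in 11.9%, 8.48% and 4.06%. Each motif was searched on both strands and counted on its own, so that matches may overlap, and a match describes the letters in the window, not a binding site.

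The next 4 sequences are stretches of 29 bases from the 3′ untranslated region (UTR), in the orientation of the mRNA, around the first ATTTA, the core of AU-rich elements through which many short-lived mRNAs are known to be degraded. Gtf2b and Taf5l fell furthest of the factors of their kind, while Polr2g and Gtf2h5 rose, and each of the 4 has 2 copies of ATTTA in the UTR of its GENCODE M21 transcript on GRCm38. Other members that fell far have other numbers, 1 in Med17 and 0 in Med4 and Med6. The genes lie on chromosomes 3, 8, 19 and 17, and the motif starts at base 165, 758, 32 and 729 of the UTR.
Gtf2b: ctagtgcaacatATTTAatgacttaaatt
Taf5l: gagaaatgctggATTTAaagaagactgct
Polr2g: ggttggatcctgATTTAggaagtgtggct
Gtf2h5: attatgcttaatATTTAtagagattacgg

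Before actinomycin D, most of the machinery was expressed at moderate levels. The median member had 27.2 TPM in KO cells and 24.4 TPM in WT cells at 0 h, above the median tested gene at 19.7 and 19.9 TPM. The most abundant member in every group was Taf10, a histone-fold subunit that TFIID shares with the SAGA coactivator, and by the mean over all 12 libraries the next were Polr2f and Polr2e, subunits that Pol II shares with Pol I and Pol III. Together the 80 members made up 3570 and 3584 TPM in the KO libraries at 0 h, against 3029 and 3196 TPM in the WT libraries. After 8 h they made up 1949 and 1943 TPM in the KO libraries, against 1379 and 1438 TPM in the WT libraries. The share of the transcriptome that encodes this machinery therefore became smaller in both genotypes, and the KO libraries lay above the WT libraries at each time.

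After 8 h of actinomycin D, nearly the whole machinery had a smaller share of the remaining RNA, and only a few small subunits had a larger one. In KO cells 69 of the 80 members fell and 3 rose, and in WT cells 72 fell and 3 rose, by limma on log2(TPM + 1) with an adjusted p under 0.05. Of all tested genes, 75.4% fell and 9.54% rose in KO cells (84.9% in all), and 80.2% fell and 8.48% rose in WT cells (88.7% in all), so most genes did the same. The median change was -1.54 in KO cells and -1.80 in WT cells, against -1.16 and -1.40 for all tested genes. When each library was instead scaled by the median ratio of its genes, which sets the typical gene near a change of 0, 35 members were lower and 27 higher in KO cells at 8 h than at 0 h, where 40.7% and 38.7% of all genes were (79.4% in all). In WT cells 37 were lower and 26 higher with that scaling, where 41.1% and 37.7% of all genes were (78.8% in all). It moves the median of all genes to -0.03 in KO cells and -0.07 in WT cells, so a fall on the TPM scale of less than about the all-gene median is no fall relative to the typical gene. At 4 h the picture was less far along. In KO cells 59 members fell and 3 rose at 4 h, where 68.0% of all genes fell and 4.88% rose (72.8% in all). In WT cells 61 fell and 4 rose, where 71.0% of all genes fell and 6.77% rose (77.8% in all). With median-ratio scaling 27 were lower and 35 higher in KO cells at 4 h, against 34.5% and 37.1% of all genes (71.6% in all), and 30 were lower and 30 higher in WT cells, against 35.2% and 36.5% (71.8% in all).

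**Figure D1:**
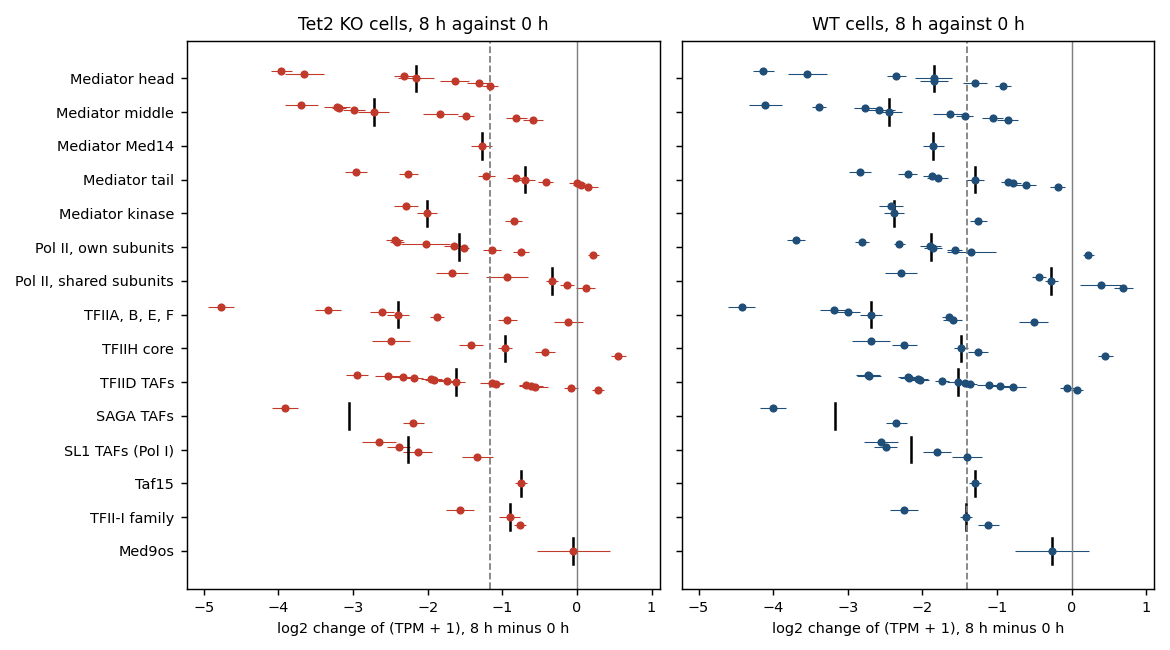
Log2 change of TPM + 1 between 8 h and 0 h of actinomycin D for each of the 80 members (points, with SE from limma), by complex, in Tet2 KO cells (left) and WT cells (right). Black bars are the median of a complex and dashed lines the median of all tested genes, -1.16 in KO and -1.40 in WT. The medians of the shared Pol II subunits and of the Mediator tail lie to the right of the line, and those of the Mediator middle and of TFIIA, B, E and F to its left, while single members of each lie on the other side.

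The catalytic core of Pol II was among the transcripts that fell well below the typical gene. Polr2a, the largest subunit, which carries the tail that TFIIH phosphorylates, had 73.9 and 76.5 TPM before the drug, 33.1 and 31.2 after 4 h and 13.9 and 12.8 after 8 h in KO cells. The WT libraries had 67.4 and 76.6 TPM before the drug, 27.4 and 26.2 after 4 h and 8.8 and 9.96 after 8 h. The genotypes overlapped at 0 h, and at 4 and 8 h both KO libraries were above both WT libraries. The change over 8 h was -2.41 ± 0.10 in KO cells and -2.81 ± 0.10 in WT cells, and the difference between the 2 changes was 0.40 ± 0.14 (SE; limma adjusted p = 0.0566).

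Polr2b, the second largest subunit, closes the other side of the active-site cleft. Among the members whose change over 8 h was called as higher in KO than in WT cells, it had the largest difference of the changes. It had 68.8 and 63.9 TPM before the drug, 44.6 and 45.2 after 4 h and 10.6 and 12.3 after 8 h in KO cells. In the WT libraries it had 52.6 and 64.6 TPM before the drug, 31.5 and 28.5 after 4 h and 3.38 and 3.79 after 8 h. The groups overlapped at 0 h, whereas at 8 h the lower KO library was well above the higher WT library. It fell in KO cells (-2.44 ± 0.12) and in WT cells (-3.69 ± 0.12 on the log2 scale), a difference of 1.25 ± 0.16 (SE; limma adjusted p = 0.000684). Polr2b shares 85 exonic bases, 1.82% of its exonic bases, with Igfbp7 on the opposite strand. Igfbp7, a secreted binding protein, had 70.8 and 55.1 TPM in KO cells at 8 h, against 4.7 and 4.56 TPM in WT cells, and at 0 h 18.4 and 18.6 TPM in KO cells, against 1.3 and 1.1 TPM in WT cells. Its own log2 change over 8 h did not pass the test of a difference between genotypes (0.35, limma adjusted p = 0.218). That test compares ratios, so it does not show how many TPM an overlap could add in either genotype. The libraries were made with a stranded kit, but the strand setting of the quantification is not given in the sources used here, and the part of this overlap in the Polr2b values was not tested.

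Of the 8 genes for subunits that belong to Pol II alone, Polr2a and Polr2b included, 7 fell and 1 rose in each genotype, where 75.4% of all genes fell in KO cells and 80.2% in WT cells. Their median change was -1.58 in KO cells and -1.88 in WT cells. With median-ratio scaling 2 were lower and 2 higher in KO cells, and 3 lower and 1 higher in WT cells. Polr2c and Polr2j, the pair that nucleates assembly of the enzyme, changed by -0.75 and -1.64 in KO cells and by -1.57 and -1.90 in WT cells. Polr2m, known as Gdown1, an inhibitor that competes with TFIIF, fell in KO cells (-1.52) and in WT cells (-2.31). Polr2i, a small subunit linked to start-site choice and proofreading, changed by -2.03 ± 0.32 in KO cells and by -1.34 ± 0.32 in WT cells. It had 11.04 and 7.83 TPM at 8 h in KO libraries and 16.1 and 6.56 TPM in WT libraries. The gap between those 2 WT libraries, 1.17 on the log2 scale, was the largest of the 79 coding members in that group. Of the exonic bases of Polr2i, 26.8% overlap Tbcb on the opposite strand, and of those of Polr2j 15.9% overlap Lrwd1. How far these overlaps entered the values was not tested. The stalk of the enzyme is made of Polr2d and Polr2g, and on the TPM scale the 2 mRNAs moved in opposite directions, whereas with median-ratio scaling Polr2d changed by 0.26 in KO cells and by -0.24 in WT cells and Polr2g by 1.64 in KO cells and by 1.89 in WT cells.

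Polr2d, one of the stalk subunits, had 63.8 and 65.8 TPM before the drug, 46.6 and 54.0 after 4 h and 30.6 and 27.4 after 8 h in KO cells, against 54.0 and 44.8, 30.7 and 32.0, and 11.6 and 14.1 TPM in WT cells. Polr2g, its partner, had 131 and 123 TPM before the drug, 137 and 135 after 4 h and 148 and 148 after 8 h in KO cells, against 97.4 and 110.3, 123 and 129, and 124 and 118 TPM in WT cells. At each of the 3 times both KO libraries lay above both WT libraries for both genes. Polr2g rose by 0.22 ± 0.07 in each genotype (SE; limma adjusted p = 0.0142 in KO and 0.0129 in WT cells). In KO cells the call was lost without the second 0 h library or without either 8 h library. In WT cells it was lost without the first library of 0 h or of 8 h, and when only the groups compared were fitted. The change was -0.65 in KO and -0.74 in WT cells once a trend on transcript length was removed.

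By their median, the subunits that Pol II shares with Pol I and Pol III kept most of their share. Polr2h did not, and kept 30.9% of its mean TPM in KO cells and 19.2% in WT cells. The median change of these 5 genes was -0.33 in KO cells and -0.27 in WT cells, against -1.16 and -1.40 for all genes. Tested genes with under 500 coding nucleotides, the class of all 5 but Polr2e, had medians of -0.12 in KO and -0.22 in WT cells. With median-ratio scaling 3 of the 5 were higher at 8 h in KO cells and 4 in WT cells, where 38.7% and 37.7% of all genes were. Polr2e, which grips the downstream DNA, had 166 and 185 TPM before the drug, 176 and 182 after 4 h and 158 and 163 after 8 h in KO cells. Its WT values were 104 and 123 TPM before the drug, 121 and 123 after 4 h and 88.4 and 78.4 after 8 h. The KO libraries were above the WT libraries at every time, without overlap. It changed by -0.13 ± 0.09 in KO cells (limma adjusted p = 0.196) and fell by 0.44 ± 0.09 in WT cells (limma adjusted p = 0.000547), and with median-ratio scaling these changes were 1.29 and 1.24. Polr2f, at the base of the clamp, fell in KO cells (-0.33 ± 0.08) and in WT cells (-0.27 ± 0.08), and with median-ratio scaling the changes were 1.09 and 1.41. Over all alternatives its change ranged from -1.21 to 1.09 in KO cells and from -1.24 to 1.41 in WT cells. Its call in WT cells was lost without the first 0 h library and when only the groups compared were fitted. Polr2h, also shared, fell in KO cells (-1.68 ± 0.21) and in WT cells (-2.29 ± 0.21).

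Polr2k and Polr2l, with the shortest coding sequences of the 13, had lower changes over 8 h in KO cells than in WT cells. The difference of the changes was -1.34 for Polr2k and -0.57 for Polr2l (limma adjusted p = 0.0356 and 0.0441), and of 22 alternatives 11 ended the call of Polr2k and 14 that of Polr2l, single libraries left out among them (highest limma adjusted p = 0.123 and 0.188). Polr2k, a zinc-binding subunit, had 35.0 and 46.6 TPM before the drug, 34.3 and 32.6 after 4 h and 16.5 and 25.6 after 8 h in KO cells. WT cells had 31.0 and 13.7 TPM before the drug, 21.6 and 23.3 after 4 h and 27.0 and 28.2 after 8 h. The gap between its 2 WT libraries at 0 h, 1.12 on the log2 scale, was the largest of the 79 coding members in that group, and both lay below the KO libraries. Its change in KO cells was -0.94 ± 0.28 (SE; limma adjusted p = 0.00806), while its change in WT cells was 0.40 ± 0.28 (limma adjusted p = 0.202) and was -0.16 without the second WT library at 0 h. Polr2l, an assembly subunit, had 33.4 and 42.6, 46.7 and 48.9, and 39.7 and 42.5 TPM in KO cells at 0, 4 and 8 h, against 25.8 and 23.8, 33.4 and 32.2, and 46.1 and 35.9 TPM in WT cells. It rose by 0.69 ± 0.13 in WT cells (SE; limma adjusted p = 0.000221), and its change in KO cells was 0.12 ± 0.13 (limma adjusted p = 0.395).

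**Figure D2:**
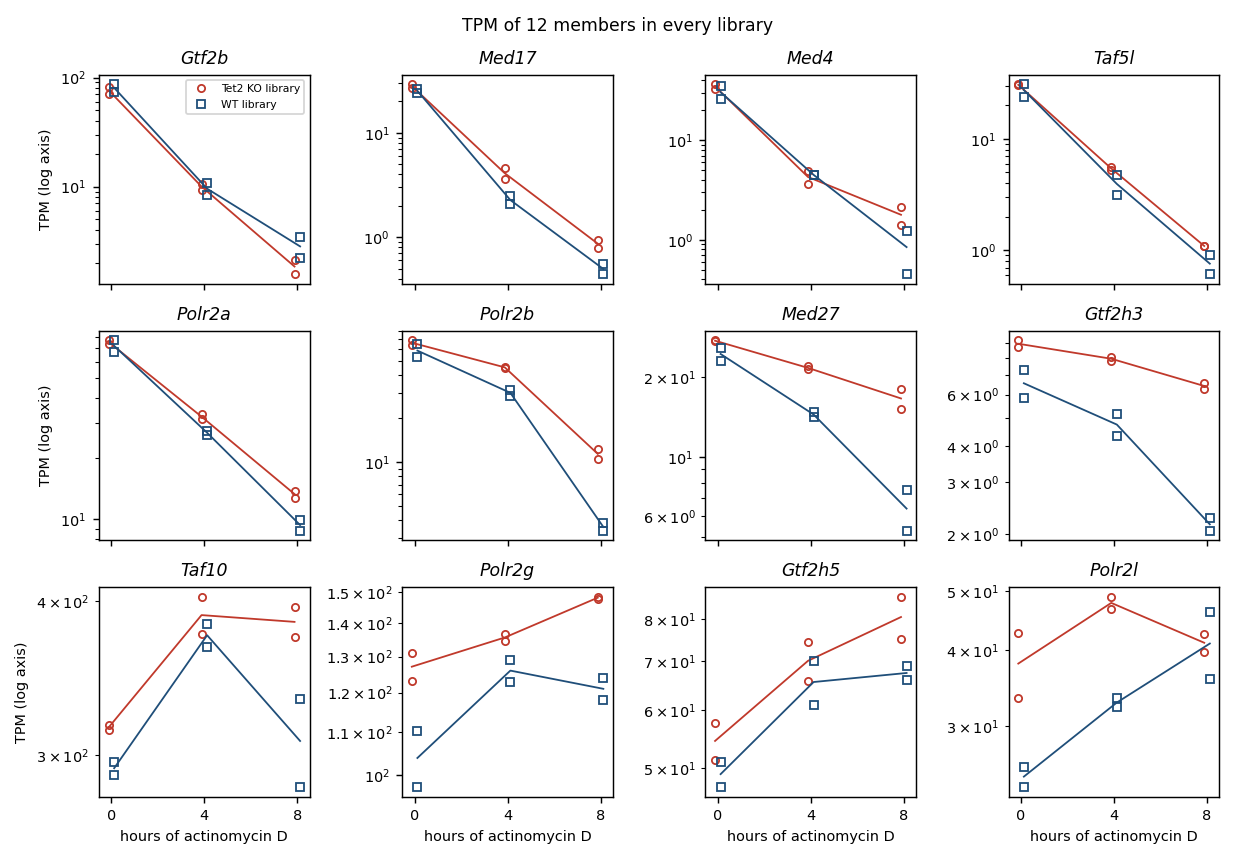
TPM (log axis, its range set per gene) of 12 members at 0, 4 and 8 h of actinomycin D in every library, Tet2 KO (circles) and WT (squares), with lines through the mean of the 2 libraries. Gtf2b, Med17, Med4 and Taf5l fell in both genotypes, Polr2b, Med27 and Gtf2h3 kept a larger share in KO cells, and Taf10, Polr2g, Gtf2h5 and Polr2l had a mean at 8 h above that at 0 h in both genotypes.

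Of the factors that prepare the promoter for Pol II, TFIIB had the mRNA that fell furthest. Gtf2b, which encodes TFIIB and bridges TFIID and Pol II, had 82.5 and 70.3 TPM before the drug, 10.6 and 9.39 after 4 h and 2.13 and 1.57 after 8 h in KO cells. The WT libraries had 73.9 and 87.1 TPM before the drug, 8.44 and 10.7 after 4 h and 2.22 and 3.44 after 8 h. The genotypes overlapped at 0 and 4 h, and at 8 h the WT libraries were slightly the higher. It fell in KO cells (-4.77 ± 0.17) and in WT cells (-4.42 ± 0.17), with SE and with limma adjusted p = 2.03e-10 in KO and 1.8e-10 in WT cells, lower than all but 0.1% of tested genes in KO cells and 0.24% in WT cells. Only 2.42% of its mean TPM at 0 h was left in KO cells at 8 h, and 3.52% in WT cells. The rank among genes is on the log2(TPM + 1) scale. By percent left, Med17 kept 3.09% in KO and 1.96% in WT cells, and Med4 5.13% and 2.78%.

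The partner subunits of TFIIA and of TFIIE moved by unlike amounts, which were compared here without a test. Gtf2a1, the large TFIIA subunit, fell in KO cells (-2.39 ± 0.15) and in WT cells (-2.69 ± 0.15), while Gtf2a2, the small one, changed by -0.12 ± 0.19 in KO cells and fell by 0.51 ± 0.19 in WT cells. Gtf2e1, the TFIIE subunit alpha, fell in KO cells (-3.33 ± 0.18) and in WT cells (-3.19 ± 0.18), while Gtf2e2, the subunit beta, changed by -0.93 ± 0.13 in KO cells and by -1.59 ± 0.13 in WT cells. Gtf2f1 of TFIIF fell in KO cells (-1.87 ± 0.09) and in WT cells (-1.65 ± 0.09), and the changes of Gtf2f2 were -2.62 ± 0.16 in KO cells and -2.996 ± 0.16 in WT cells. At 0 h Gtf2e1 and Gtf2e2 differed less than at 8 h: Gtf2e1 had 22.2 and 23.8 TPM and Gtf2e2 52.3 and 55.4 TPM in KO cells at 0 h, and 1.44 and 1.31 against 25.9 and 29.7 TPM at 8 h. In WT cells the 2 had 16.0 and 17.2 against 47.2 and 57.1 TPM at 0 h, and 1.08 and 0.78 against 19.1 and 14.3 TPM at 8 h.

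Of the 5 core subunits of TFIIH, 1 rose and 4 fell in each genotype, where 75.4% of all genes fell in KO cells and 80.2% in WT cells. Their median change was -0.96 in KO cells and -1.48 in WT cells, against -1.16 and -1.40 for all genes. Gtf2h5, the smallest core subunit, which stabilises the complex in DNA repair, had 57.6 and 51.4 TPM before the drug, 74.4 and 65.9 after 4 h and 75.2 and 85.8 after 8 h in KO cells. Its values in WT cells were 51.0 and 47.1, 61.1 and 70.1, and 69.1 and 66.0 TPM. All 4- and 8-hour libraries were above the 0 h libraries of their genotype, and it rose by 0.55 ± 0.10 in KO cells and by 0.45 ± 0.10 in WT cells (SE; limma adjusted p = 0.000222 and 0.00102). Gtf2h3, a structural core subunit, had 9.2 and 8.72 TPM before the drug, 8.07 and 7.85 after 4 h and 6.59 and 6.25 after 8 h in KO cells, against 5.84 and 7.28, 5.13 and 4.34, and 2.26 and 2.05 TPM in WT cells. The KO libraries were above the WT libraries at each time, and the gap widened. Gtf2h3 fell in KO cells (-0.42 ± 0.14) and in WT cells (-1.25 ± 0.14), and so did Gtf2h1 (-0.96 ± 0.10 in KO and -1.48 ± 0.10 in WT cells) and Gtf2h4 (-1.42 ± 0.16 in KO and -2.24 ± 0.16 in WT cells). Gtf2h2 fell in KO cells (-2.49 ± 0.26) and in WT cells (-2.69 ± 0.26).

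Among the TFIID subunits the loss was graded. Of the 15 tested, 13 fell and 1 rose in KO cells, and 13 fell and 0 rose in WT cells, counts near the 75.4% and 80.2% of all genes that fell. In WT cells Taf10 was at 0.07 ± 0.08 (limma adjusted p = 0.41) and Taf13 at -0.06 ± 0.09 (limma adjusted p = 0.554). With median-ratio scaling 8 were lower and 6 higher in KO cells, and 7 lower and 6 higher in WT cells. Taf1, the largest subunit and scaffold, had 24.3 and 24.8 TPM before the drug, 9.63 and 10.5 after 4 h and 4.69 and 4.55 after 8 h in KO cells, against 19.0 and 21.9, 10.1 and 8.42, and 3.59 and 3.89 TPM in WT cells. It fell by 2.18 ± 0.12 in each genotype, and the difference of the 2 changes was -0.01 ± 0.17 (SE; limma adjusted p = 0.98). Taf3, which reads a histone mark of active promoters, had 9.62 and 10.2 TPM in KO cells and 9.68 and 11.6 TPM in WT cells at 0 h, and 0.75 and 1.02 TPM in KO cells and 0.65 and 0.89 TPM in WT cells at 8 h, changes of -2.54 ± 0.16 in KO and -2.72 ± 0.16 in WT cells.

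Taf10 stood at the other end. It had 314 and 318 TPM before the drug, 376 and 404 after 4 h and 374 and 396 after 8 h in KO cells. WT cells had 289 and 296 TPM before the drug, 383 and 368 after 4 h and 283 and 334 after 8 h. Both genotypes were higher at 4 h than at 0 h, and at 8 h the WT libraries lay on both sides of their 0 h values. It rose by 0.28 ± 0.08 in KO cells over 8 h (SE; limma adjusted p = 0.00413). Exons of Taf10 overlap those of Ilk on the opposite strand over 2106 bases (45.9% of Taf10) when all annotated isoforms are joined. The change of Ilk was -0.39 in KO cells and -0.89 in WT cells (limma adjusted p of the difference = 0.00731). How far this overlap entered the Taf10 values was not tested.

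The SAGA-specific and Pol I-specific TAFs fell in both genotypes. Taf5l, a SAGA subunit related to Taf5, had 30.8 and 30.2 TPM before the drug, 5.25 and 5.6 after 4 h and 1.1 and 1.09 after 8 h in KO cells, against 23.7 and 31.0, 4.76 and 3.12, and 0.61 and 0.91 TPM in WT cells. It fell in KO cells (-3.91 ± 0.18) and in WT cells (-4.003 ± 0.18), with SE and with limma adjusted p = 7.14e-10 in KO and 3.9e-10 in WT cells. Taf6l, its SAGA partner, changed by -2.20 ± 0.14 in KO cells and by -2.35 ± 0.14 in WT cells. The 4 TAFs of SL1, the Pol I promoter factor, all fell in each genotype, with medians of -2.26 in KO cells and -2.15 in WT cells. Of all tested genes 75.4% fell in KO cells and 80.2% in WT cells. With median-ratio scaling 3 of the 4 were lower in KO cells and 2 in WT cells, and 0 were higher in either. With that scaling 40.7% and 41.1% of all genes were lower. Taf15, an RNA-binding protein of the FET family that is only loosely tied to TFIID, had 95.5 and 99.4 TPM before the drug, 74.3 and 78.8 after 4 h and 58.7 and 56.1 after 8 h in KO cells. The WT libraries had 72.0 and 83.5, 82.7 and 82.7, and 31.7 and 30.4 TPM. It was thus higher in the WT libraries at 4 h and higher in the KO libraries at 0 and 8 h. The change by 4 h was -0.35 ± 0.08 in KO cells (limma adjusted p = 0.00211), and 0.09 ± 0.08 in WT cells (limma adjusted p = 0.323), a difference of -0.44 ± 0.12 that did not pass the test (limma adjusted p = 0.126).

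In Mediator the head and middle mRNAs had, by their medians, fallen further than the tail mRNAs. The median change over 8 h was -2.16 for the 7 head subunits, -2.73 for the 9 middle subunits and -0.70 for the 9 tail subunits in KO cells, and -1.85, -2.45 and -1.30 in WT cells. On the TPM scale all head and middle subunits fell in both genotypes, and of the tail subunits 6 fell in KO cells and 8 in WT cells. Of all tested genes 75.4% fell in KO cells and 80.2% in WT cells. Among the changes of all tested genes, the head, middle and tail medians lay at percentiles 21.7, 10.25 and 64.8 in KO cells. In WT cells they lay at percentiles 35.7, 18.6 and 53.1. Relative to the typical gene, with median-ratio scaling, 6 tail subunits were higher and 2 lower at 8 h in KO cells, and 5 higher and 3 lower in WT cells. Of all genes 38.7% were higher and 40.7% lower in KO cells, and 37.7% and 41.1% in WT cells. With that scaling 4 head subunits were lower and 0 higher in KO cells and 4 lower and 1 higher in WT cells, and of the middle subunits 6 were lower and 2 higher in KO cells and 5 lower and 2 higher in WT cells. These differences between modules are a description and were not tested.

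Med17, the scaffold of the head that contacts Pol II, had 26.8 and 29.3 TPM before the drug, 3.64 and 4.55 after 4 h and 0.79 and 0.94 after 8 h in KO cells. In the WT libraries it had 24.1 and 26.4 TPM before the drug, 2.06 and 2.47 after 4 h and 0.44 and 0.55 after 8 h. The KO libraries were above the WT libraries at each time. It fell in KO cells (-3.96 ± 0.14) and in WT cells (-4.13 ± 0.14), with SE and with limma adjusted p = 1.75e-10 in KO and 7.87e-11 in WT cells. Med4, a middle subunit, had 32.8 and 36.8, 3.6 and 4.96, and 2.15 and 1.42 TPM in KO cells, against 25.8 and 35.0, 4.48 and 4.51, and 0.45 and 1.24 TPM in WT cells. The genotypes overlapped at 0 and 4 h, and at 8 h both KO libraries lay above the WT libraries. Its change was -3.69 ± 0.22 in KO cells and -4.11 ± 0.22 in WT cells. Med6, a head subunit at the contact with Pol II, fell in KO cells (-3.65 ± 0.26) and in WT cells (-3.54 ± 0.26). Med11, a small head subunit, changed by -1.16 ± 0.11 in KO cells and by -0.92 ± 0.11 in WT cells.

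Med1, the middle subunit that nuclear receptors bind, stayed near the typical gene. It had 22.4 and 20.8 TPM before the drug, 11.3 and 12.1 after 4 h and 6.85 and 7.31 after 8 h in KO cells, against 17.7 and 19.6, 10.3 and 10.7, and 6.74 and 5.83 TPM in WT cells. Each KO library was above each WT library at all 3 times, by a margin that did not pass the test at 0 h (0.20 ± 0.11, limma adjusted p = 0.219) or at 8 h (0.15 ± 0.11, limma adjusted p = 0.285). It fell in KO cells (-1.48 ± 0.11) and in WT cells (-1.43 ± 0.11). With median-ratio scaling its change was -0.17 in KO cells (limma adjusted p = 0.173) and 0.11 in WT cells. Med21, the most abundant middle subunit, had 145 and 134 TPM before the drug, 55.1 and 59.2 after 4 h and 15.0 and 13.9 after 8 h in KO cells, against 134 and 129, 46.6 and 41.7, and 10.95 and 12.4 TPM in WT cells. Its change, -3.19 ± 0.09 in KO cells and -3.39 ± 0.09 in WT cells, had the smallest adjusted p of all members in both genotypes (limma adjusted p = 6.02e-11 and 2.34e-11).

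In the tail, Med25, Med28 and Med30 did not pass the test in KO cells. Med28 changed by 0.05 ± 0.10 in KO cells and by -0.19 ± 0.10 in WT cells. Med25, an activator-binding subunit, had 20.3 and 17.8 TPM before the drug, 19.9 and 18.0 after 4 h and 19.9 and 18.2 after 8 h in KO cells. Its WT values were 20.4 and 21.3 TPM before the drug, 18.0 and 16.9 after 4 h and 11.2 and 12.1 after 8 h. At 0 h the WT libraries were slightly the higher, at 4 h the genotypes met, and at 8 h both KO libraries were well above both WT libraries. Its change was 0.00 ± 0.10 in KO cells (SE; limma adjusted p = 0.994) and -0.79 ± 0.10 in WT cells (limma adjusted p = 1.11e-05). Med30, a subunit found in metazoans, had 38.8 and 53.0, 58.2 and 51.5, and 56.0 and 44.97 TPM in KO cells, against 44.6 and 39.7, 40.7 and 44.7, and 26.5 and 27.8 TPM in WT cells. Its change was 0.14 ± 0.14 in KO cells (SE; limma adjusted p = 0.359) and -0.61 ± 0.14 in WT cells (limma adjusted p = 0.00129). Med27, which joins the tail to the head, had 27.4 and 27.5, 21.4 and 21.95, and 18.1 and 15.1 TPM in KO cells, against 23.1 and 25.8, 14.2 and 14.7, and 5.28 and 7.51 TPM in WT cells. The KO libraries were above the WT libraries at each time, most of all at 8 h, and its change was -0.70 ± 0.14 in KO cells and -1.80 ± 0.14 in WT cells. Med23, Med29 and Med24 changed by -2.26, -2.96 and -1.22 in KO cells and by -2.20, -2.84 and -1.88 in WT cells.

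Med14, the backbone that holds the modules together, fell in KO cells (-1.28 ± 0.14) and in WT cells (-1.86 ± 0.14). Of the kinase module, Med12, which activates its cyclin-dependent kinase, changed by -0.85 ± 0.12 in KO cells and by -1.25 ± 0.12 in WT cells, while Med13 and Med13l, the paralogs that tether the module, changed by -2.29 and -2.01 in KO cells and by -2.42 and -2.38 in WT cells. Reads of paralogs such as these 2 may be split between them by the quantification. The TFII-I family, whose members take up signals rather than build the preinitiation complex, fell throughout on the TPM scale. Gtf2i, its founding member, had 66.9 and 63.5 TPM before the drug, 53.4 and 48.5 after 4 h and 38.3 and 37.9 after 8 h in KO cells, against 54.9 and 59.9, 35.1 and 36.4, and 20.3 and 21.4 TPM in WT cells. At every time both KO libraries were above both WT libraries. With median-ratio scaling Gtf2i changed by 0.64 in KO and 0.22 in WT cells, and Gtf2ird2 by 0.30 and 0.37. With that scaling Gtf2ird1 changed by -0.49 in KO and -1.07 in WT cells.

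Before actinomycin D, the mRNAs of several Pol II subunits had a larger share in KO cells. At 0 h, 10 members were higher and 1 lower in KO than in WT cells, against 14.3% and 11.5% of all tested genes (25.7% in all), so the count of higher members lay near the background. The median difference was 0.14, against 0.06 for all genes. The 10 included 7 of the 13 Pol II subunits, whose median was 0.47. With median-ratio scaling 8 members were higher and 2 lower, against 13.1% and 11.8% of all genes (24.9% in all), with 4 Pol II subunits among the 8. The number of Pol II subunits was 3 without the second KO library, 4 without the second WT library and 5 without the first KO library of 0 h, and 9 when only the groups compared were fitted.

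The shared subunits led this difference. Polr2e, whose 0 h values stand above, was higher in KO cells by 0.63 ± 0.09 (SE; limma adjusted p = 0.000298), Polr2l by 0.59 ± 0.13 (limma adjusted p = 0.00517) and Polr2f by 0.47 ± 0.08 (limma adjusted p = 0.00136). Polr2f had 198 and 225 TPM in KO libraries at 0 h, against 161 and 143 TPM in WT libraries. Polr2j, of the assembly pair, had 137 and 153 TPM in KO libraries, against 111 and 86.2 TPM in WT libraries, a difference of 0.55 ± 0.14 (limma adjusted p = 0.0122). Polr2k was higher by 0.93 ± 0.28 (limma adjusted p = 0.03), a value that was 0.37 without the low second WT library. Its call was lost there, without the second KO library of 0 h, and with no filter, no trend or a robust spread. Polr2d and Polr2g, the stalk, were higher by 0.39 ± 0.12 and 0.29 ± 0.07 (limma adjusted p = 0.0295 and 0.0116). The call of Polr2l was lost without the second KO library of 0 h, and that of Polr2j without the second library of either genotype or with median-ratio scaling, with limma adjusted p up to 0.0719 and 0.117. With median-ratio scaling the calls of Polr2d and Polr2k were lost as well (limma adjusted p = 0.0715 and 0.0891). Polr2a differed by 0.07 ± 0.10 (limma adjusted p = 0.677).

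Of the 7 Pol II genes called at 0 h, all but Polr2e and Polr2g have fewer than 500 coding nucleotides, and the 2 WT libraries at 0 h were themselves not alike in short genes. For the 15 members with under 500 coding nucleotides, replicate 1 minus replicate 2 had a median of 0.11 in the WT libraries at 0 h, against -0.16 for the 64 other members, while in the KO libraries at 0 h the medians were 0.01 and 0.02. Once a trend on transcript length was removed, 5 Pol II subunits were higher in KO cells, of which 4 were shared subunits. The share of all tested genes called in that setting was not counted, so this number has no background beside it. Outside Pol II, Taf4b, a TAF enriched in germ cells and lymphocytes, was higher by 0.52 ± 0.14, Gtf2h3 by 0.40 ± 0.14 and Taf15 by 0.33 ± 0.08 (limma adjusted p = 0.0185, 0.0453 and 0.0113). The call of Taf4b was lost without the second KO or the first WT library of 0 h or with a pseudocount of 0.1 (limma adjusted p up to 0.173). Gtf2ird2, a TFII-I relative, was the 1 lower gene, with 7.67 and 8.0 TPM in KO libraries against 11.7 and 11.8 TPM in WT libraries. Its difference was -0.52 ± 0.14 (limma adjusted p = 0.0165), and removing any 1 of these 4 libraries ended the call. Of the exonic bases of Gtf2ird2, 408 (6.58%) overlap Ncf1 on the opposite strand. Ncf1 had 268 and 253 TPM in KO cells at 0 h, against 342 and 409 TPM in WT cells. How far this overlap entered the Gtf2ird2 values was not tested.

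**Figure D3:**
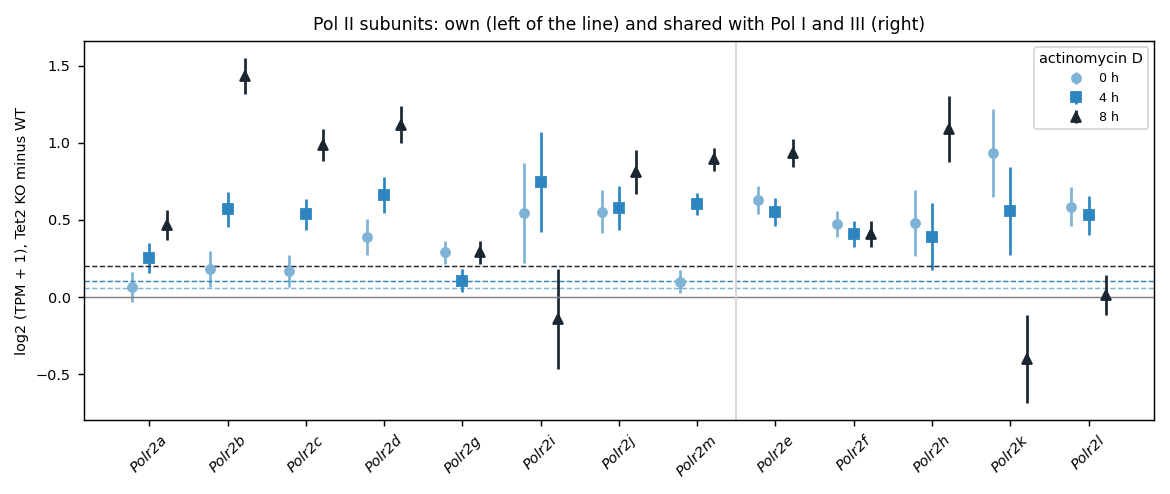
Log2 difference of TPM + 1 between Tet2 KO and WT cells (points, with SE from limma) for the 13 Pol II subunits at 0, 4 and 8 h of actinomycin D. Dashed lines are the medians of all tested genes, 0.06, 0.10 and 0.20. Polr2b, Polr2c, Polr2d and Polr2m lay further above the line at 8 h than at 0 h, and Polr2k and Polr2l lay lower at 8 h than at 0 h.

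During the block, more of the machinery came to be higher in KO cells, as did more genes in general. At 4 h, 24 members were higher and 1 lower in KO cells, against 24.9% and 13.7% of all genes (38.6% in all). With median-ratio scaling 21 were higher and 4 lower, against 19.9% and 18.3% (38.3% in all). Without the second KO library of 4 h, 14 were higher and 1 lower. At 8 h, 31 were higher and 3 lower, against 37.3% and 12.1% of all genes (49.4% in all), and with median-ratio scaling 24 were higher and 8 lower, against 25.7% and 23.5% (49.2% in all). The median member differed by 0.25 at 8 h and the median gene by 0.20. The count at 8 h comprised 10 of 13 Pol II subunits, 7 of 15 Gtf2 genes, 6 of 22 TAF genes and 8 of 29 Mediator subunits. Of the Pol II subunits 10 were higher when any 1 library was left out, and 8 with median-ratio scaling.

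At 8 h the differences were largest in Polr2b (1.43 ± 0.12), Med27 (1.26 ± 0.14), Gtf2h3 (1.23 ± 0.14), Polr2d (1.12 ± 0.12) and Polr2h (1.09 ± 0.21), with limma adjusted p of 1.03e-06, 1.12e-05, 1.13e-05, 8.62e-06 and 0.0011. Polr2h, a shared subunit, had 26.8 and 17.4 TPM in KO libraries against 7.86 and 11.7 TPM in WT libraries. Lower in KO cells were Med26, which recruits elongation factors, Taf5, a structural TFIID subunit, and Taf7, which restrains Taf1, by -0.59 ± 0.17, -0.47 ± 0.14 and -0.40 ± 0.12 (limma adjusted p = 0.0126, 0.0155 and 0.0175). Taf7 had 1.47 and 1.48 TPM in KO libraries at 8 h, against 2.31 and 2.23 TPM in WT libraries. These 3 mRNAs were by then at or below 2.31 TPM in every library, and each call was lost without some of the 8 h libraries. Those were the first KO or second WT library for Med26 and the second KO or first WT library for Taf5. For Taf7 they were either KO or the first WT library. The calls of Taf5 and Taf7 were also lost when only the groups compared were fitted.

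Whether actinomycin D changed a member differently in the 2 genotypes was asked with the KO change minus the WT change. Over 4 h 0 of 80 members passed by limma, where 0.350% of all genes did, 0.0538% above 0 and 0.296% below. With median-ratio scaling 1 member passed, Taf15, below 0, as did 1.18% of all genes, with 0.251% above 0 (1.43% in all). On the TPM scale 9 members had an unadjusted p under 0.05, and the smallest adjusted p was 0.0654, of Polr2m. Over 8 h, 16 members kept more in KO cells and 4 kept less, against 17.3% and 2.63% of all genes (19.9% in all). The median difference was 0.21 for the members and 0.18 for all genes. With median-ratio scaling 11 were above 0 and 5 below, against 8.96% and 7.88% of all genes (16.8% in all). On the TPM scale the count above 0 thus lay near the background. Without the second KO library of 0 h, 11 members passed, and without the second WT library of 0 h 13.

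The 16 came from several complexes. They were Polr2b, Polr2c, Polr2d and Polr2m of Pol II, Gtf2h1, Gtf2h3 and Gtf2h4 of TFIIH, Gtf2e2 of TFIIE, Gtf2i, the tail subunits Med24, Med25, Med27 and Med30 of Mediator, and Taf6, Taf9 and Taf15. They included no head or middle subunit of Mediator. The call stood in all alternatives tried for 8, which were Polr2b, Med27, Polr2c, Polr2m, Med25, Taf6, Taf9 and Gtf2i. Their differences were 1.25 ± 0.16, 1.10 ± 0.20, 0.82 ± 0.14, 0.79 ± 0.10, 0.79 ± 0.15, 0.67 ± 0.13, 0.66 ± 0.13 and 0.66 ± 0.12, with limma adjusted p of 0.000684, 0.00277, 0.00276, 0.000684, 0.00377, 0.0042, 0.00586 and 0.00286.

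Polr2m had 101 and 95.6 TPM before the drug, 64.6 and 62.0 after 4 h and 33.2 and 34.1 after 8 h in KO cells. WT cells had 91.8 and 91.2, 42.0 and 40.7, and 17.2 and 18.1 TPM. Its libraries were close at 0 h and well apart from 4 h on. Polr2c had 56.2 and 59.2, 46.4 and 43.6, and 33.5 and 34.3 TPM in KO cells, against 46.7 and 55.9, 33.1 and 28.4, and 16.7 and 16.5 TPM in WT cells. Each KO library of Polr2c was above each WT library at every time.

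Taf6, a histone-fold partner of Taf9, had 41.1 and 41.6 TPM before the drug, 29.3 and 28.96 after 4 h and 27.2 and 23.7 after 8 h in KO cells, against 36.9 and 36.3, 26.9 and 24.9, and 13.2 and 14.1 TPM in WT cells. Taf9 had 164 and 169, 137 and 152, and 79.5 and 76.1 TPM in KO cells, against 148 and 163, 123 and 110.4, and 41.8 and 50.0 TPM in WT cells. Both mRNAs were higher in every KO library than in any WT library at each of the 3 times. Taf9 shares 1564 exonic bases, 73.8% of its own, on the same strand with Ak6, which encodes an adenylate kinase, so the quantification may split reads between them. The change of Ak6 was -1.77 in KO cells and -1.87 in WT cells, with a difference of 0.10 (limma adjusted p = 0.851). Taf6 shares 1185 exonic bases (26.5%) with Ap4m1 on the opposite strand and Polr2c 953 (18.1%) with Dok4. Neither partner passed the test of a difference between genotypes (limma adjusted p = 0.406 and 0.986), which compares ratios of TPM. How far these overlaps and that with Ak6 entered the values of the members was not tested.

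Of the other members higher in KO cells, Gtf2h3 and Med24 differed by 0.83 ± 0.19 and 0.66 ± 0.16, Gtf2h4, Med30 and Polr2d by 0.82 ± 0.23, 0.76 ± 0.20 and 0.73 ± 0.17, and Gtf2e2, Taf15 and Gtf2h1 by 0.66 ± 0.18, 0.54 ± 0.12 and 0.52 ± 0.14. Their limma adjusted p ran to 0.028, of Gtf2h4, and each lost its call under at least 1 alternative. For Taf15 and Polr2d that was median-ratio scaling (limma adjusted p = 0.056 and 0.0978), and for Gtf2h3 the removal of the second KO library at 0 h (limma adjusted p = 0.0526).

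The 4 members that kept less in KO cells were Polr2k, Med26, Taf5 and Polr2l. Med26 had 12.9 and 12.04 TPM before the drug, 0.44 and 0.59 after 4 h and 0.4 and 0.49 after 8 h in KO cells, against 10.0 and 11.8, 0.7 and 1.12, and 0.91 and 1.48 TPM in WT cells. Taf5 had 13.0 and 13.2, 1.49 and 1.19, and 0.94 and 0.72 TPM in KO cells, against 10.3 and 10.9, 1.15 and 1.02, and 1.7 and 1.37 TPM in WT cells. Both genes had reached their low level by 4 h, and in WT cells their share was not lower at 8 h than at 4 h. The difference was -0.77 ± 0.24 for Med26 and -0.76 ± 0.20 for Taf5 (SE; limma adjusted p = 0.0422 and 0.0204). A stretch of 16 exonic bases of Taf5 overlaps Usmg5 on the opposite strand, which had 978 and 835 TPM in KO cells and 771 and 805 TPM in WT cells at 8 h. The part of that overlap in values near 1 TPM was not tested. For Polr2k and Polr2l the difference was -1.34 ± 0.40 and -0.57 ± 0.18 (limma adjusted p = 0.0356 and 0.0441). Both genes were higher in KO cells at 0 h and level with the WT cells, or below them, at 8 h.

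**Figure D4:**
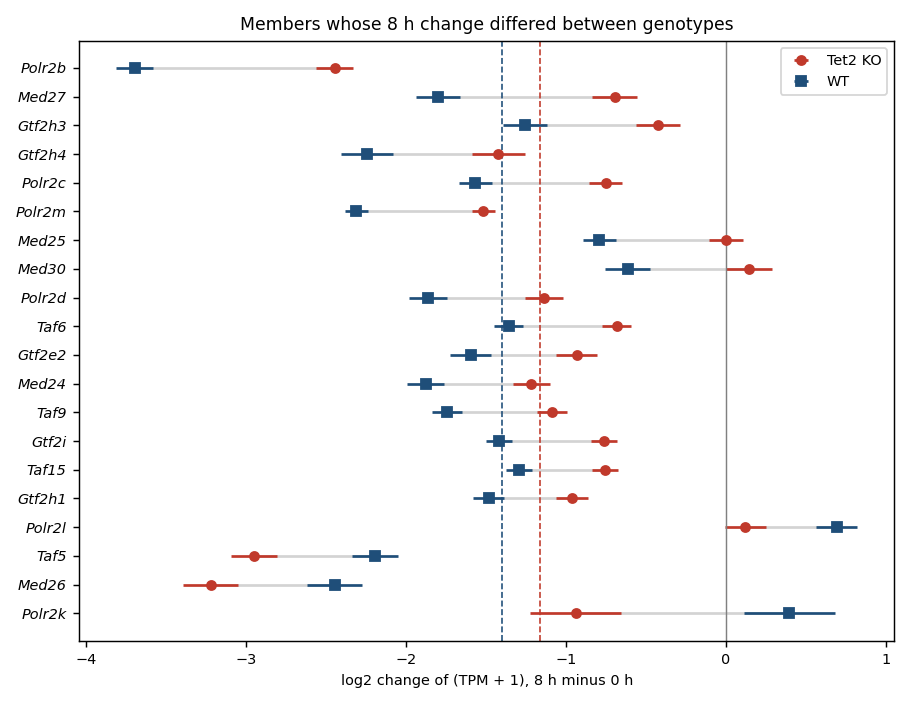
Log2 change of TPM + 1 between 8 h and 0 h in Tet2 KO cells (circles) and WT cells (squares), with SE from limma, for the 20 members whose change differed between genotypes. Dashed lines are the medians of all tested genes, -1.16 in KO and -1.40 in WT. The KO point lies to the right of the WT point in 16 genes and to the left in Polr2l, Taf5, Med26 and Polr2k.

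The factors that work beside the members did much the same. Of 10 partner genes that complete TFIID, TFIIH and the Mediator kinase module but carry other names, 10 fell over 8 h in KO cells and 10 in WT cells, with medians of -1.73 and -2.24. Of all tested genes 75.4% fell in KO cells and 80.2% in WT cells. Tbp, the TATA-binding protein, fell furthest in WT cells, and its changes were -3.79 ± 0.23 in KO cells and -3.93 ± 0.23 in WT cells. It had 33.1 and 31.5 TPM before the drug and 2.11 and 0.87 after 8 h in KO libraries, against 29.3 and 33.0, then 1.24 and 0.98, in WT libraries. Cdk19, a kinase of the Mediator module, fell least in WT cells, and its changes were -0.96 ± 0.12 in KO cells and -1.81 ± 0.12 in WT cells, a difference of 0.85 ± 0.17 (SE; limma adjusted p = 0.00473). In all, 3 of these 10 kept more in KO cells, where 17.3% of all genes did.

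All 40 genes on the list of elongation and termination factors fell in each genotype, with medians of -1.97 in KO cells and -2.16 in WT cells. For this list and the next 2, the share of all tested genes that fell was 75.4% in KO cells and 80.2% in WT cells. Nelfa, of the pausing factor NELF, had the deepest change in WT cells (-3.45 ± 0.16 in KO and -3.91 ± 0.16 in WT cells), and Supt4a, of the pausing and elongation factor DSIF, the smallest (-0.68 ± 0.10 in KO and -0.87 ± 0.10 in WT cells). Of the Pol I genes 9 of 10 fell in KO cells and 10 in WT cells, and of the Pol III genes 20 of 21 in each. Their medians were -2.29 and -1.84 in KO cells and -2.42 and -2.04 in WT cells. Polr1d, a subunit common to Pol I and Pol III, had 132 and 111 TPM in KO cells at 8 h, against 79.2 and 82.7 TPM in WT cells, and moved little, by -0.04 ± 0.08 in KO cells and -0.22 ± 0.08 in WT cells. With the difference of the 8 h changes, 10 of the 40 elongation genes, 2 of the 10 Pol I genes and 7 of the 21 Pol III genes kept more in KO cells, where 17.3% of all genes did. With median-ratio scaling 6 elongation genes, 2 Pol I genes and 1 Pol III gene were above 0 in this difference, and 1, 0 and 1 below, where 8.96% and 7.88% of all genes were. Twistnb, a Pol I subunit, and Gtf3c5, of the Pol III factor TFIIIC, fell furthest of their lists in WT cells (-3.08 ± 0.20 in KO and -3.25 ± 0.20 in WT cells, and -2.69 ± 0.17 in KO and -3.16 ± 0.17 in WT cells), and Polr3gl, a Pol III subunit, had the smallest change of its list in WT cells (-0.46 ± 0.21 in KO and -0.44 ± 0.21 in WT cells). With median-ratio scaling 5 partners, 27 elongation genes, 7 Pol I genes and 12 Pol III genes were lower at 8 h in KO cells and 2, 9, 1 and 7 higher, and in WT cells 10, 30, 7 and 10 were lower and 0, 6, 1 and 5 higher. Of all genes 40.7% were lower and 38.7% higher in KO cells with that scaling, and 41.1% and 37.7% in WT cells.

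Across members, the rank correlation of the change was weak with coding length and near 0 with UTR features. Spearman's rho of the change over 8 h with coding length was -0.29 in KO cells and -0.36 in WT cells over 79 coding members, against -0.28 and -0.31 over 10534 tested genes. With the number of ATTTA in the 3′ UTR it was 0.02 in KO cells and 0.07 in WT cells for the members, against -0.24 and -0.22 for all genes. These are descriptions across genes, which are not independent replicates. Of the 79 members, 60.8% had an ATTTA in the UTR, and of all tested genes 64.3%.

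The median change of the 15 members with under 500 coding nucleotides was -0.94 in KO cells and -0.92 in WT cells, against -0.12 and -0.22 for the 970 tested genes of that size. For the 33 members from 500 to under 1500 it was -1.52 and -1.80, against -1.08 and -1.31, and for the 31 longer members -1.91 and -2.05, against -1.47 and -1.72. In each size class, then, the median member lay below the median gene in both genotypes. Med12, with 6573 coding nucleotides, kept 53.4% of its mean TPM in KO cells and 39.7% in WT cells, while Med31, with 396, kept 7.81% and 7.93%.

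**Figure D5:**
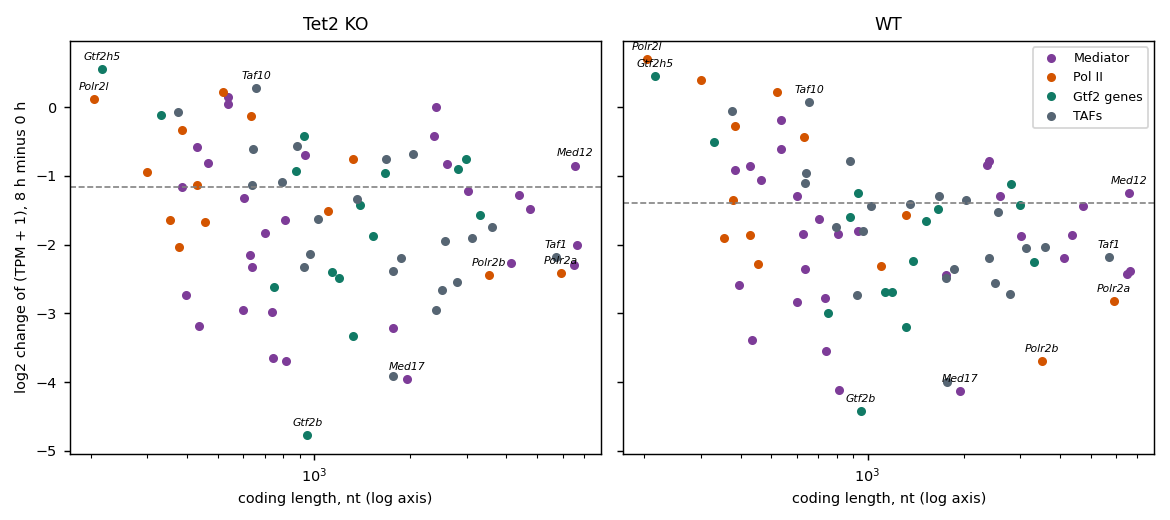
Log2 change of TPM + 1 between 8 h and 0 h against coding length in nucleotides (log axis) for 79 coding members, in Tet2 KO cells (left) and WT cells (right), coloured by family. Dashed lines are the medians of all tested genes, -1.16 and -1.40. The members that rose are at the short end, and Gtf2b and Med17 lie lowest at middle lengths.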

How the data were processed

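Stranded mRNA libraries were made, per the labels' protocols, from TRIzol RNA in 6 groups of 2 libraries. STAR, RSEM and mm10 are named in the submitters' processing notes, while their versions, the annotation and any strand option were not found in the sources used here. The authors deposited TPM per gene, without counts, so depth is unknown and no counting interval is given. The values were taken as log2(TPM + 1), on which the change of a low gene is understated. A gene was tested where 2 or more libraries reached 1 TPM, with limma 3.58.1 in R 4.3.3, using 1 mean per group over all 12 libraries and a spread trend on expression. Adjusted p are Benjamini-Hochberg values over 11152 genes with a threshold of 0.05. The fitting code was also run on simulated data in which a small part of the genes changed, in KO cells at 8 h only. That differs from the broad fall seen here, so the run does not bear on these calls.

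The members, the lists of partners, elongation factors, Pol I, Pol III and marker genes, and the tests were chosen with earlier results of these data known. Named throughout were Polr2a, Med1 and Taf1, the 3 most abundant members, the 5 lowest and 5 highest changes over 8 h in each genotype, and up to 5 calls each way between genotypes. Other members were named when their complex was described, and of each list the lowest and highest gene in WT cells at 8 h. Transcript lengths, UTRs and overlaps came from GENCODE M21 (GRCm38) by symbol, with 97.3% of tested genes matched. Alternatives were median-ratio scaling, pseudocounts of 0.1 and 0.5, no filter on low genes, a minimum mean of 5 TPM, no trend, a robust spread, the replicate number as a block, only the groups compared, a length trend removed (lowess span 0.3) and each library left out. Figures were drawn with matplotlib 3.10.9.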

Additional observations from a re-analysis of the deposited data

Results flagged for a closer look

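For 20 members the change over 8 h differed between genotypes by the interaction term of limma, given as the KO change minus the WT change on the log2 scale. Above 0 were Polr2b (1.25), Med27 (1.10), Gtf2h3 (0.83), Gtf2h4 (0.82), Polr2c (0.82), Polr2m (0.79), Med25 (0.79), Med30 (0.76), Polr2d (0.73), Taf6 (0.67), Gtf2e2 (0.66), Med24 (0.66), Taf9 (0.66), Gtf2i (0.66), Taf15 (0.54) and Gtf2h1 (0.52). Below 0 were Polr2k (-1.34), Med26 (-0.77), Taf5 (-0.76) and Polr2l (-0.57).

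For 12 of the 20 the call depended on a setting or a library. The highest limma adjusted p over their alternatives was 0.188 for Polr2l, 0.185 for Gtf2e2, 0.155 for Med30, 0.129 for Med26, 0.123 for Polr2k, 0.108 for Gtf2h4, 0.0978 for Polr2d, 0.0822 for Gtf2h1, 0.0798 for Taf5, 0.0675 for Med24, 0.056 for Taf15 and 0.0526 for Gtf2h3. For Polr2k, whose WT libraries at 0 h had 31.0 and 13.7 TPM, the difference ranged from -1.89 to -0.78 over the alternatives.

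The libraries whose removal ended calls were these. Without the first KO library of 0 h, the calls of Gtf2e2, Gtf2h1, Med30, Med26 and Taf5 were lost, and without the second KO library of 0 h those of Gtf2e2, Gtf2h1, Gtf2h3, Gtf2h4, Med24, Med26, Polr2k, Polr2l and Taf5. Removing the first WT library of 0 h ended those of Med26, Med30 and Polr2l, and removing the second WT library of 0 h those of Gtf2e2, Gtf2h1, Gtf2h4, Med24, Med26, Polr2k and Polr2l. At 8 h the first KO library carried those of Gtf2h1, Med24, Med26, Med30, Polr2k and Polr2l, and the second KO library those of Gtf2e2, Gtf2h1, Gtf2h4, Med26, Polr2l and Taf5. The first WT library of 8 h carried those of Gtf2h1, Med30, Polr2k, Polr2l and Taf5, and the second those of Gtf2e2, Gtf2h4, Med26 and Polr2k. Med26 was also lost without either KO library of 4 h, and Polr2l without any of the 4 h libraries.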

How the results depend on the processing

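Of 198 comparisons of a count of called members with an alternative, 189 stayed within 1.5 times and 9 did not. Leaving out 1 library gave 3 to 12 members for KO against WT at 0 h (3 without KO replicate 2 and 7 without KO or WT replicate 1 of 0 h), 15 to 29 at 4 h (15 without KO replicate 2 of 4 h), and 11 to 23 for the 8 h difference of changes (11 without KO replicate 2 and 13 without WT replicate 2 of 0 h). For the 4 h difference of changes it gave 0 to 1, median-ratio scaling gave 1 and no filter gave 1.

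Of 1644 comparisons of a named value with an alternative, 1494 kept direction and side of the threshold, 109 lost the call, 15 gained one and 26 changed sign. With median-ratio scaling the 8 h change was 1.29 in KO and 1.24 in WT cells for Polr2e, 1.09 and 1.41 for Polr2f, and 0.11 in WT cells for Med1, and the KO against WT difference of Med1 at 8 h was -0.0945. With the length trend removed the 8 h change was -0.65 in KO and -0.74 in WT cells for Polr2g, -0.61 for Med30 and -0.18 for Polr2l in KO cells, and -1.04 for Polr2k in WT cells. The cause was not tested. The 8 h difference of changes of Taf1 was 0.0338 and 0.0127 with pseudocounts of 0.1 and 0.5 and 0.0146 with the length trend removed.

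Leaving out 1 library, the 8 h change ranged from -0.0763 to 0.36 for Med30 and from -0.0525 to 0.29 for Polr2l in KO cells, and from -0.16 to 0.96 for Polr2k and from -0.0505 to 0.19 for Taf10 in WT cells. The 8 h difference of changes ranged from -0.141 to 0.0392 for Med1 and from -0.103 to 0.0871 for Taf1, and the KO against WT difference of Polr2a at 0 h from -0.0258 to 0.16.

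The replicate numbers did not pair the libraries: deviations of same-numbered libraries correlated with r of -0.08 to 0.05 over 15 pairs of groups. With the replicate number as a block 10, 27 and 34 members differed between KO and WT cells at 0, 4 and 8 h, 61 and 72 changed in KO cells by 4 and 8 h, 66 and 75 in WT cells, and the changes of 0 and 19 differed between genotypes, with Polr2l no longer called. Without counts, the precision that depth would set is unknown, which matters most for members near 1 TPM at 8 h.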
